A study of Mus musculus with 12 samples.

Results

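Itaconate and myeloid activation genes is the name used here for 8 mouse genes: Acod1, Gpr84, Fpr1, Fpr2, Saa3, Cp, Ly6i and Adgre4. They are activation genes of myeloid cells, chosen by their large rises with tumour necrosis factor alpha (TNF) in the log2 values of these arrays, so their differences with TNF are given as a description, with no test. No threshold was part of the choice. A member was measured where the platform annotation gave a probe set, the unit that an Affymetrix array reads, to its symbol alone. This held for 7 of the 8 genes, with 15 probe sets in all, among 18193 genes and 45037 probe sets that are not controls. Fpr1 had no probe set of its own in the annotation, so its level is not analysed. Only its promoter window and its neighbours on the chromosome are included below.

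The cells were KSL cells from mice aged 2 to 4 months. KSL stands for bone marrow cells that carry c-Kit and Sca-1 and lack lineage markers, a fraction rich in haematopoietic stem and progenitor cells. There were 4 groups of 3 arrays: Fancc-/- with TNF, Fancc-/- without TNF, wild type with TNF and wild type without TNF. All cultures ran for 24 hours with serum, stem cell factor (SCF), Flt3 ligand, IL-11 and IL-6, and TNF was given at 10 ng/ml. The study compared TNF with no TNF within each genotype, and the genotypes with each other. Fancc is a DNA repair gene of the Fanconi anaemia pathway, and the kind of allele is not given in the labels. The labels do not say that replicates came from separate mice, though sex-linked transcripts, given below, differed between some replicates of the same group. Every p-value is thus taken to reflect only how much these samples varied, and part of that may be technical.

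Acod1 makes itaconate from cis-aconitate, an intermediate of the citric acid cycle, in activated macrophages. Itaconate restrains succinate dehydrogenase and modifies proteins as an electrophile. The other genes encode receptors, secreted proteins and a surface protein of stimulated myeloid cells, many of them known as targets of inflammatory cytokines that act through NF-kB and C/EBP transcription factors.

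The arrays as a whole set the frame for these values. Levels are log2 RMA values, which ran from 2.14 to 14.94, with array medians between 5.96 and 6.05. Fancc read 8.73 to 9.16 on the arrays labelled Fancc-/- and 8.22 to 8.65 on the wild-type arrays, so its signal was not lower on the mutant arrays, and genotype is used here only as labelled. Of the defining markers, Kit read 9.95 to 10.77 and Cd34 12.81 to 13.13 over all 12 arrays. The macrophage gene C1qa read 3.46 to 4.26 and the T cell gene Cd3e 3.13 to 3.69, near the floor in every group. C1qa does not stand for all such genes: of 14 measured monocyte and macrophage genes, 4 had a mean under 5 in each group. Over all arrays Csf1r read 12.23 to 13.26, Cd68 10.53 to 11.37 and Lyz2 12.33 to 13.95. The sex-linked transcripts Xist and Eif2s3y differed between arrays, and Xist also followed treatment. Xist read 12.20 to 13.08 on all 6 treated arrays, against 5.12, 12.73 and 12.04 on the untreated arrays labelled Fancc-/- and 5.47, 5.06 and 12.53 on the untreated wild-type ones. Eif2s3y read 3.79 on treated wild-type replicate 3, 4.16 on untreated replicate 2 labelled Fancc-/- and 10.46 to 11.88 on the others. With both transcripts as covariates, the members' TNF differences ran from 1.99 to 5.64 on the arrays labelled Fancc-/- and from 1.97 to 5.38 in wild type.

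Promoter sequences of 4 members are shown because the data bear on these genes as a set that was high together with TNF. The windows come from RefSeq on GRCm38.p6 and hold 250 bases before the transcription start and 50 from it on, 5′ to 3′ on the gene's strand. The table held 8 such windows for 7 members, all but Ly6i, including 2 for Cp. These 4 were selected after a motif search. Capitals mark matches to any of the motifs described next.
Acod1 (chr14:103046762-103047061, plus strand): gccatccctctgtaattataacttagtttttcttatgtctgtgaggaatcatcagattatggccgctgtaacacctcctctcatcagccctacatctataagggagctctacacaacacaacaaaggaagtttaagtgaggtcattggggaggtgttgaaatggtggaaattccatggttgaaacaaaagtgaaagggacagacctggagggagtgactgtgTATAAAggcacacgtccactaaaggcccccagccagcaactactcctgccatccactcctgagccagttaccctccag
Saa3 (chr7:46715627-46715926, minus strand): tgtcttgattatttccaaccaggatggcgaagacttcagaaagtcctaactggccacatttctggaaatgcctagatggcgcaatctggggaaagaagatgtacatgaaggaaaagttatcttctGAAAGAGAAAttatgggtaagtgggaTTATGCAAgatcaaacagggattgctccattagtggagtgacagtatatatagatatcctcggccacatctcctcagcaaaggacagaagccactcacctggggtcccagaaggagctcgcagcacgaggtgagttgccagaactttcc
Cp, second window (chr3:19956999-19957298, plus strand): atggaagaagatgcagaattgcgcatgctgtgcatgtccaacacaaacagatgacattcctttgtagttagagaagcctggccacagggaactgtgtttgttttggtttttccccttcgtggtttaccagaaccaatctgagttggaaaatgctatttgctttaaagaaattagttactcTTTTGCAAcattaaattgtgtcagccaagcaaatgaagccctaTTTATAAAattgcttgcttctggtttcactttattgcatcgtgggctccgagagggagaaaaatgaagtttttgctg
Adgre4 (chr17:55749734-55750033, plus strand): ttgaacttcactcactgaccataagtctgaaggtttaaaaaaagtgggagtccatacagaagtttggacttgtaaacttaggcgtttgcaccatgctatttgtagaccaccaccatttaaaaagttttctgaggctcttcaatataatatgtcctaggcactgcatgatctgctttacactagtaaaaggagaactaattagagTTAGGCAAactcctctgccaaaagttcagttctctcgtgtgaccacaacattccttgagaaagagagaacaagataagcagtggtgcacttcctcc

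Each motif was searched on both strands, in 32851 windows of the same length. The NF-kB consensus of 10 bases was held by 4.51% of all windows and by 0 of the 8 members' windows. The C/EBP motif, TTGCNNAA, was held by 10.8% of windows and by 3 of the 8. Relative to the transcription start, it lay at -99 to -92 in Saa3, at -70 to -63 in Cp and at -46 to -39 in Adgre4, each time on the strand opposite to the gene. The interferon response motif, GAAANNGAAA, was held by 3.44% of windows and by Saa3 alone among the members, at -125 to -116. The TATA box, TATAAA, was held by 13.62% of windows and by 4 of the 8, those of Fpr1, Fpr2, Cp and Acod1. In Acod1 it lay at -28 to -23, and in Cp at -25 to -20, where it overlaps a match on the other strand. The matches lay further from the start in Fpr1, at -227 to -222, and in Fpr2, at -130 to -125. The AP-1 motif, TGANTCA, was held by 7.81% of windows and by the first Cp window alone among the members. A match is a description of the letters in a window, and a window with no match says nothing about the factor.

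Acod1 was higher with TNF in both genotypes. It read 10.11, 8.50 and 10.90 with TNF on the arrays labelled Fancc-/-, against 3.88, 3.94 and 4.51 without TNF. In wild type it read 9.13, 8.75 and 8.87 with TNF, against 3.55, 3.83 and 3.38 without TNF. Treated and untreated arrays did not overlap in either genotype. The treated arrays labelled Fancc-/- were spread over a wider range than the treated wild-type ones. The log2 difference of the means was 5.73 (SE 0.46) on the arrays labelled Fancc-/- and 5.33 (SE 0.46) in wild type. The untreated levels lay near those of C1qa and Cd3e, and the files do not say whether they were above background, so no fold is given. Against the other probe sets of the same array, Acod1 stood between the 11.3 and 31.0 percentiles without TNF and between 70.2 and 88.2 with TNF. In bulk samples, fewer cells of a type and less RNA per cell cannot be told apart, so these levels do not say whether a few cells or most carried the transcript.

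Of the 3 measured receptors, Gpr84 is a G protein-coupled receptor that responds to medium-chain fatty acids. It read 10.94, 10.43 and 10.80 on the TNF-treated arrays labelled Fancc-/-, against 6.33, 6.82 and 6.54 on the untreated ones. Wild-type arrays gave 11.04, 10.55 and 10.80 with TNF, against 7.35, 6.82 and 6.64 without. The genotypes overlapped under each condition, and treated and untreated arrays did not overlap. The differences were 4.16 (SE 0.21) for the arrays labelled Fancc-/- and 3.86 (SE 0.21) for wild type, or 17.9-fold and 14.5-fold.

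Fpr2 is a receptor of the formyl peptide family, which binds bacterial formylated peptides and serum amyloid A and guides phagocytes. It read 11.74, 10.36 and 12.34 with TNF on the arrays labelled Fancc-/-, against 6.23, 6.44 and 7.75 without TNF. On wild-type arrays the level was 11.12, 10.15 and 10.61 with TNF, against 6.11, 6.76 and 6.25 without. One untreated array labelled Fancc-/-, replicate 3, stood above the other untreated arrays, yet below every treated one. The differences were 4.67 (SE 0.51) and 4.25 (SE 0.51), folds of 25.5 on the arrays labelled Fancc-/- and 19.1 in wild type.

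Adgre4 is an adhesion G protein-coupled receptor of the family that includes Adgre1, a macrophage marker. Its brighter probe set, 1451563_at, read 8.68, 7.26 and 9.72 with TNF on the arrays labelled Fancc-/-, against 3.55, 4.19 and 4.10 without TNF. In wild type it read 8.0, 7.41 and 7.86 with TNF, against 4.08, 4.06 and 4.20 without. The untreated arrays of both genotypes lay close together, while the treated ones labelled Fancc-/- extended both above and below the wild-type ones. The differences were 4.60 (SE 0.47) on the arrays labelled Fancc-/- and 3.64 (SE 0.47) in wild type on the log2 scale. Its untreated level too lay near that of C1qa and is not shown to be above background, so no fold is given.

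Among the secreted proteins, Saa3 is an acute phase serum amyloid A made by macrophages and other cells outside the liver. It read 13.36, 12.61 and 13.62 with TNF on the arrays labelled Fancc-/-, against 10.34, 10.68 and 11.55 without TNF. Wild-type arrays gave 13.09, 12.52 and 12.85 with TNF, against 10.01, 10.64 and 10.79 without. Saa3 was the only measured member whose probe set already read above 10 on every untreated array, and the treated arrays lay above all of them. Its difference was 2.34 (SE 0.34) in each genotype, 5.06-fold, the smallest of the 7.

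Cp encodes ceruloplasmin, a copper-carrying ferroxidase that helps to move iron out of cells. Its brightest probe set, 1455393_at, read 9.93, 9.09 and 10.65 with TNF on the arrays labelled Fancc-/-, against 4.96, 5.48 and 5.40 without TNF. On wild-type arrays the level was 8.97, 8.29 and 9.58 with TNF, against 4.93, 5.19 and 4.79 without. Treated arrays lay above untreated ones in both genotypes, and replicate 2 was the lowest treated array in each. The differences were 4.61 (SE 0.38) on the arrays labelled Fancc-/- and 3.97 (SE 0.38) in wild type, or 24.5-fold and 15.7-fold.

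Ly6i is a small surface protein of the Ly6 family that is anchored to the membrane by a lipid. It read 9.28, 8.82 and 10.34 with TNF on the arrays labelled Fancc-/-, against 4.89, 4.44 and 5.09 without TNF. In wild type it read 8.72, 8.57 and 8.75 with TNF, against 5.10, 4.77 and 4.45 without. Every treated array labelled Fancc-/- lay above every treated wild-type array, while the untreated arrays overlapped. The differences were 4.67 (SE 0.33) on the arrays labelled Fancc-/- and 3.91 (SE 0.33) in wild type, or 25.5-fold and 15.0-fold. The lowest untreated Ly6i values, 4.44 and 4.45, lay below the highest untreated value of Acod1, 4.51. They are not shown to be above background, and the folds rest on them.

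**Figure D1:**
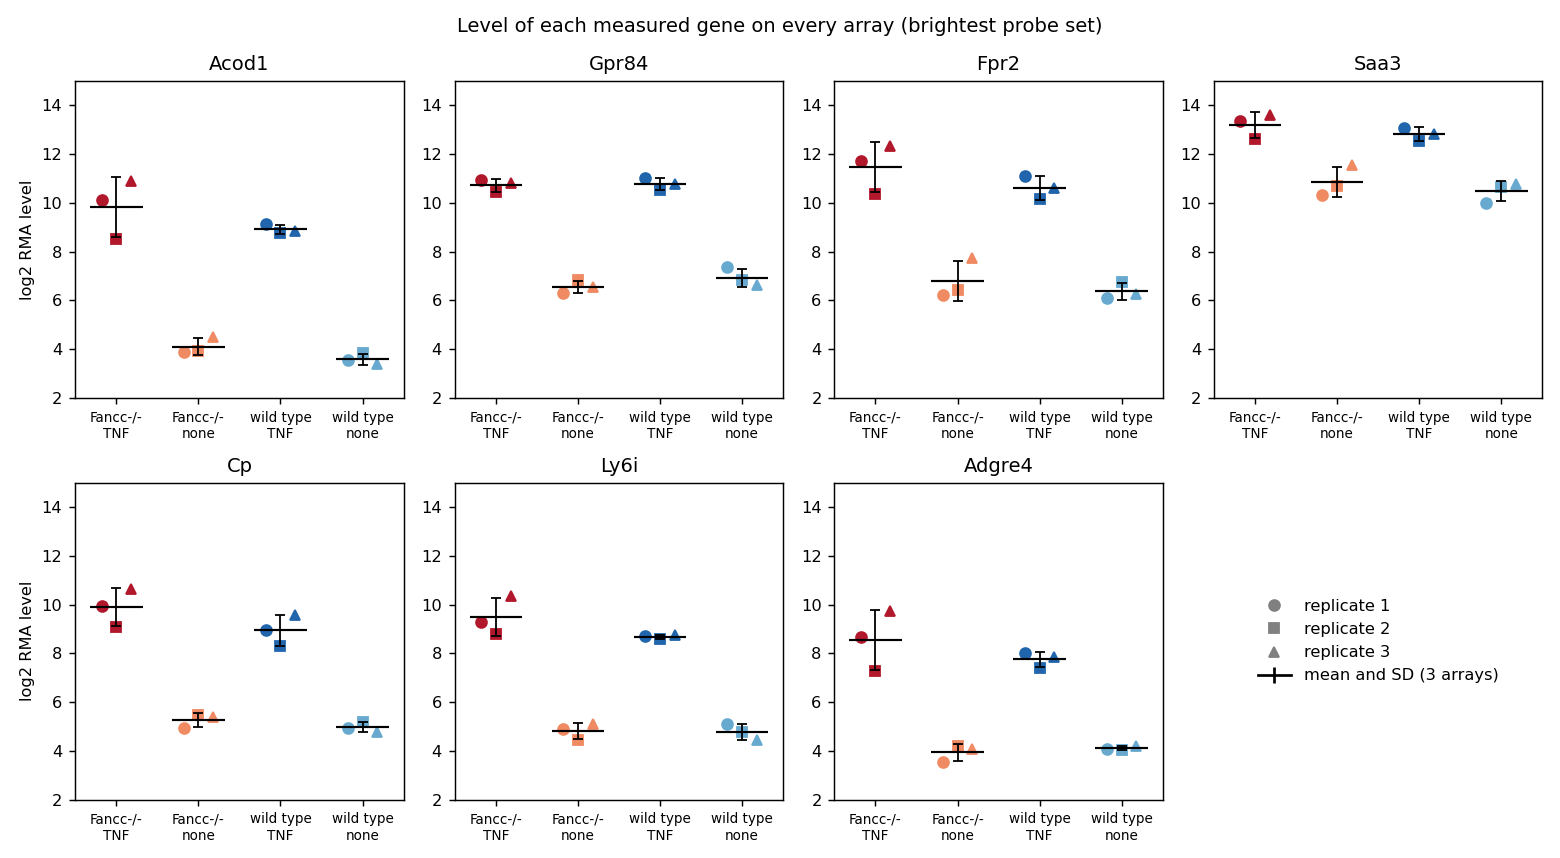
Level of each of the 7 measured genes on every array (vertical axis, log2 RMA value of the brightest probe set), by genotype and treatment. Points are arrays, and bars are the mean and SD of 3 arrays. In every panel the treated arrays lie above the untreated ones of the same genotype.

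All 7 genes had treated arrays above untreated ones with no overlap in both genotypes, where 10.4% of all genes did so on the arrays labelled Fancc-/- and 8.87% in wild type. The genes were chosen for this, and nothing is read from it. The median difference over the 7 was 4.61 on the arrays labelled Fancc-/- and 3.91 in wild type, beside a median of -0.03 over all genes in each.

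Where a member had several probe sets, these differed in size. Of the 8 probe sets of Cp, 5 had TNF differences between 3.48 and 5.04 on the arrays labelled Fancc-/- and between 2.51 and 4.08 in wild type. The other 3 were at 0.30, 0.62 and 0.05 on the arrays labelled Fancc-/-, and at 0.29, -0.02 and -0.04 in wild type. The last of these, 1441326_at, read 2.43 to 2.72 on all arrays, at most at the 1.7 percentile of its array. The dimmer probe set of Adgre4, 1424998_at, read 6.29, 4.70 and 7.23 with TNF on the arrays labelled Fancc-/-, against 3.81, 4.04 and 4.19 without TNF. Wild-type arrays gave 5.13, 4.69 and 5.08 with TNF, against 4.15, 3.98 and 4.16 without. Its differences were thus 2.06 on the arrays labelled Fancc-/- and 0.87 in wild type, smaller than those of the brighter probe set.

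**Figure D2:**
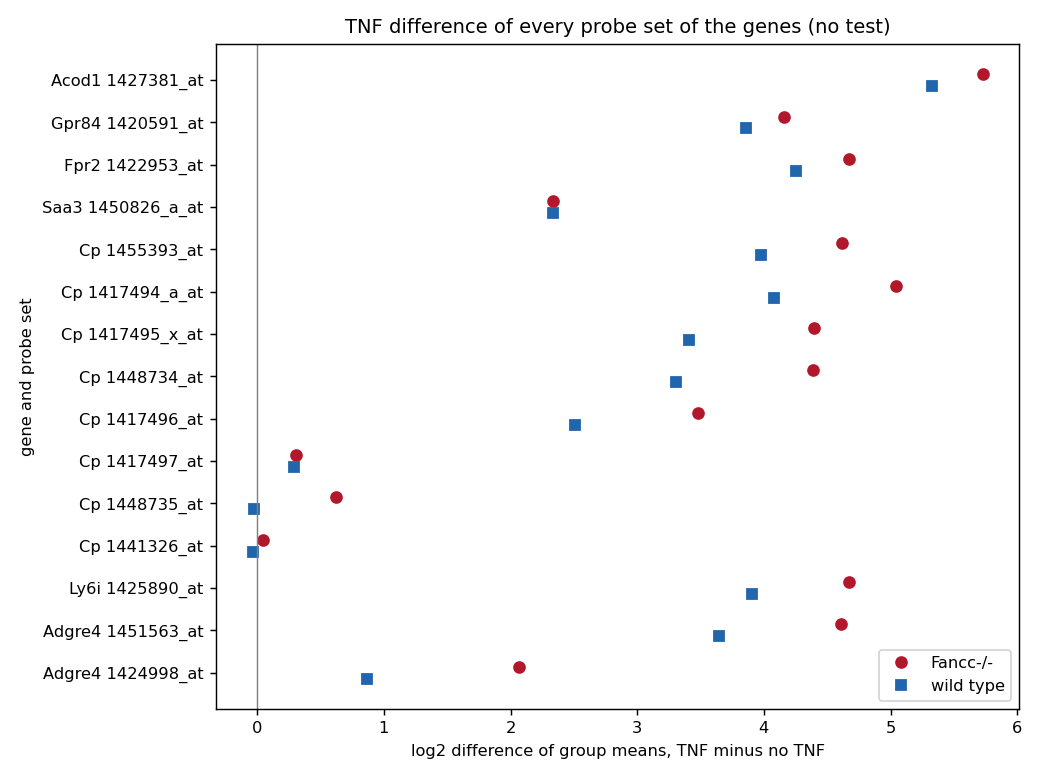
TNF difference (horizontal axis, log2, mean of treated minus mean of untreated arrays) for each of the 15 probe sets, with arrays labelled Fancc-/- as circles and wild type as squares. Of the 8 Cp probe sets, 3 lie near 0 while the other 5 lie at 2.51 or above.

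To ask whether the genotypes differed, which was not used to choose the genes, each was tested with limma over all 12 arrays, 2-sided, with Benjamini-Hochberg adjustment over all 18193 genes and a call at an adjusted p under 0.05. With TNF, 6 of the 7 genes were higher on average on the arrays labelled Fancc-/-, as were 47.3% of all genes, but 0 of 7 passed, beside 0.0055% of all genes. At an unadjusted p under 0.05 there were 2 of 7 by their brightest probe sets, beside 5.6% of all genes. These were Cp, with a difference of 0.95 (95% interval 0.11 to 1.79, limma adjusted p = 0.811), and Ly6i, with 0.80 (0.08 to 1.52, limma adjusted p = 0.838). By brightest probe sets, Ly6i was also the only member whose treated arrays did not overlap between genotypes. This was so in the same direction for 4.2% of all genes. Of the dimmer probe sets, only Cp 1417496_at did not overlap, at 6.93, 6.51 and 8.50 labelled Fancc-/- against 6.24, 6.37 and 6.48 in wild type. It differed by 0.95 (0.06 to 1.85), and Adgre4 1424998_at by 1.11 (0.07 to 2.15), both with an unadjusted p under 0.05. Neither passed over all probe sets (limma adjusted p = 0.995 and 0.994), and no other dimmer probe set had an unadjusted p under 0.05. Acod1 had a difference of 0.92 (-0.10 to 1.94), Fpr2 0.86 (-0.27 to 1.98), Adgre4 0.80 (-0.24 to 1.83) and Saa3 0.38 (-0.38 to 1.13). Gpr84 had -0.07 (-0.54 to 0.39), the narrowest interval of the 7.

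Without TNF, 0 of the 7 passed, beside 0.0055% of all genes, and 0 had an unadjusted p under 0.05, beside 4.12%. Acod1 differed by 0.52 (-0.50 to 1.54), with untreated arrays labelled Fancc-/- that lay above all untreated wild-type ones, as for 3.82% of all genes. Gpr84 differed by -0.37 (-0.84 to 0.09), and the other 5 by between -0.17 and 0.43. Averaged over treatment, 0 of 7 passed, beside 0.022% of all genes. Acod1, at 0.72 (SE 0.33, adjusted p = 0.676 by limma), and Cp, at 0.63 (SE 0.27, adjusted p = 0.65 by limma), had unadjusted p under 0.05, as 7.39% of all genes did.

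The size of the TNF difference was also compared between genotypes through the interaction. No member passed, beside 0.0% of all genes, and none had an unadjusted p under 0.05, beside 2.9%. The difference of differences was 0.96 (-0.50 to 2.43) for Adgre4, 0.77 (-0.25 to 1.78) for Ly6i and 0.64 (-0.55 to 1.83) for Cp. It was 0.42 (-1.17 to 2.01) for Fpr2, 0.40 (-1.05 to 1.84) for Acod1, 0.30 (-0.35 to 0.96) for Gpr84 and -0.00 (-1.07 to 1.07) for Saa3. Most of these intervals reach beyond a log2 unit on the positive side, so a difference of that size between the genotypes lies within them.

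**Figure D3:**
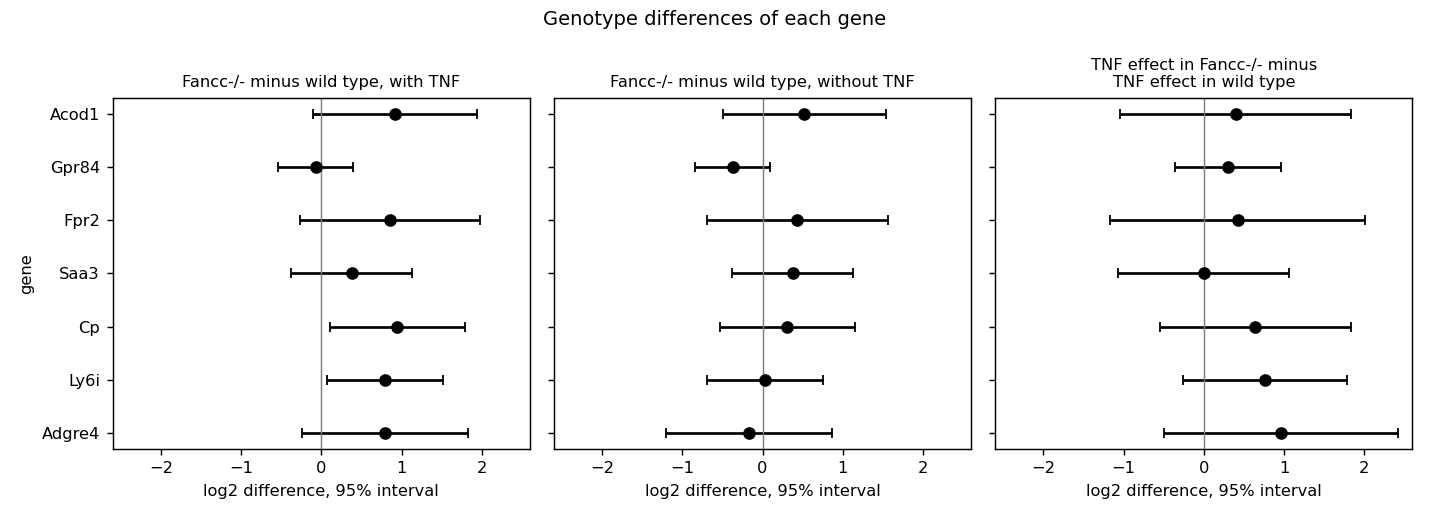
Genotype differences of the 7 genes (horizontal axes, log2, with 95% intervals from limma): Fancc-/- minus wild type with TNF, the same without TNF, and the TNF difference in Fancc-/- minus that in wild type. Values are those of the brightest probe sets. With TNF the intervals of Cp and Ly6i leave out 0, and no gene passed after adjustment.

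The spread between the treated arrays labelled Fancc-/- followed an order shared by the genes. Replicate 2 was the lowest of the 3 for 7 of 7 members, as for 37.8% of all genes, and replicate 3 was the highest for 6 of 7, as for 34.2% of all genes. Gpr84 was the exception, with replicate 1 the highest. Among the 439 other genes that passed as higher with TNF on these arrays, replicate 2 was the lowest for 27.3% and replicate 3 the highest for 36.4%. For those genes replicate 2 was more often the highest, at 48.3%, and replicate 1 was most often the lowest, at 48.1%. The range over these 3 arrays was 0.51 to 2.46 for the members, with a median of 1.56, beside a median of 0.21 over all genes. In the treated wild-type group replicate 2 was also the lowest for 7 of 7 members, as for 34.1% of all genes, with ranges of 0.17 to 1.29. The members share arrays, so this is 1 pattern and not 7.

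Leaving out replicate 2 of the treated arrays labelled Fancc-/- moved the genotype difference with TNF to 1.59 for Acod1, 1.44 for Adgre4, 1.42 for Fpr2, 1.35 for Cp, 1.13 for Ly6i, 0.67 for Saa3 and 0.07 for Gpr84. Leaving out replicate 3 moved it to 0.39 for Acod1, 0.21 for Adgre4, 0.43 for Fpr2, 0.57 for Cp, 0.37 for Ly6i, 0.16 for Saa3 and -0.11 for Gpr84. The genotype differences with TNF of 6 of the 7 genes were thus smaller without replicate 3 and larger without replicate 2. No member passed in either case, and the lowest adjusted p, that of Acod1 without replicate 2, was 0.0905 by limma. The adjusted p of Acod1 over its alternatives ran from there up to 1.0.

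**Figure D4:**
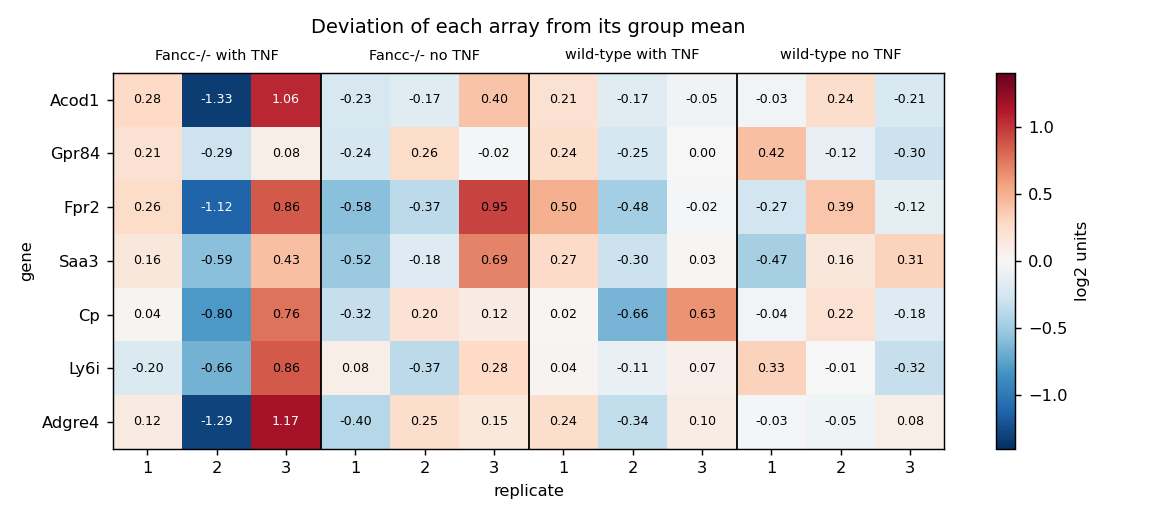
Deviation of each array from its group mean (colour and printed value, log2 units), with genes as rows and arrays as columns. Replicate 2 of the treated arrays labelled Fancc-/- is below the mean for all 7 genes, with deviations between -1.33 and -0.29.

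Markers of mature myeloid cells moved across the same arrays. The mean level of the granulocyte list (12 of 14 measured) was 9.40, 8.35 and 9.62 on the treated arrays labelled Fancc-/-, against 10.87, 10.93 and 11.16 on the untreated ones. In wild type it was 7.68, 8.04 and 8.62 with TNF, against 10.30, 10.81 and 10.65 without. The list was lowest on replicate 2 of the treated arrays labelled Fancc-/-, as the members were, but not on replicate 2 of the treated wild-type ones. The log2 summed level of the list was 13.98 to 15.19 with TNF against 15.90 to 16.14 without on the arrays labelled Fancc-/-, and 14.13 to 14.76 against 15.64 to 15.96 in wild type. Of its 12 genes, 5 fell with TNF on the arrays labelled Fancc-/-, and 8 fell in wild type, beside 1.86% and 2.33% of all genes in that order.

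The mean of the monocyte and macrophage list (14 of 15 measured) was 7.97, 7.35 and 7.96 on the treated arrays labelled Fancc-/-, against 8.01, 8.08 and 8.42 on the untreated ones. In wild type it was 7.37, 7.53 and 7.49 with TNF, against 8.04, 7.99 and 8.18 without. This list too was lowest on replicate 2 of the treated arrays labelled Fancc-/-, but highest on replicate 2 of the treated wild-type ones. Its log2 summed level was 14.20 to 15.09 with TNF against 14.57 to 15.02 without on the arrays labelled Fancc-/-, and 14.27 to 14.54 against 14.49 to 14.75 in wild type. With TNF 1 of its genes rose (Cx3cr1) and 3 fell (Irf8, Ccr2 and Fcgr1) on the arrays labelled Fancc-/-, and in wild type 1 rose (Cx3cr1) and 4 fell (these 3 and Mrc1). Of all genes, 2.45% rose on the arrays labelled Fancc-/- and 2.69% in wild type, and the shares that fell are those given for the granulocyte list. Among the defining markers, Csf1r read 12.23 to 13.26 over all arrays, and the neutrophil elastase gene Elane read 9.97, 7.05 and 9.13 with TNF against 12, 12.03 and 12.62 without on the arrays labelled Fancc-/-. In wild type Elane read 9.94, 7.33 and 7.52 with TNF against 11.20, 12.12 and 12.20 without, so its lowest treated array was replicate 2 in both genotypes. Of the dendritic cell list (7 of 8 measured), Zbtb46, Ccr7 and Siglech rose on the arrays labelled Fancc-/- and Zbtb46 alone in wild type. In the other 6 marker lists, 1 gene rose (Procr) and 3 fell (Nkg7, Klf1 and Pecam1) on the arrays labelled Fancc-/-, while 4 fell in wild type (Mcpt8, Nkg7, Klf1 and Pecam1). These marker genes are named outside the rule. The part of these marker changes in the members' levels was not tested.

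Genes of the same pathways and families were read from 8 lists without the members, 147 of whose 165 genes were measured. With TNF, 7 of them rose and 4 fell on the arrays labelled Fancc-/-, which is 7.48% of the lists beside 4.31% of all genes. Of all genes, 2.45% rose and 1.86% fell there. In wild type 9 rose and 6 fell, 10.2% beside 5.02% of all genes, of which 2.69% rose and 2.33% fell. At an unadjusted p under 0.05 there were 37 of the 147 on the arrays labelled Fancc-/- and 43 in wild type, beside 17.1% and 17.8% of all genes in that order. By list, these counts were 12 and 9 of 24 for macrophage activation and 7 and 7 of 19 for chemoattractant and metabolite receptors. Iron and copper handling had 5 and 6 of 17, and the Ly6 family 4 and 5 of 14. The electrophile response list had 3 and 4 of 14, and adhesion G protein-coupled receptors 3 and 4 of 17. The remaining lists have theirs below. All 11 genes called on the arrays labelled Fancc-/- were among the 15 called in wild type. The count on the arrays labelled Fancc-/- was 17 without untreated wild-type replicate 1 and 22 with array weights. The wild-type count was 6 without untreated replicate 2 or 3, 9 without treated replicate 2, 8 without treated replicate 3 and 7 with Xist and Eif2s3y as covariates. With these covariates 452 of all genes passed on the arrays labelled Fancc-/-, against 784, and 410 in wild type, against 913.

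Of the 25 measured genes of itaconate metabolism and the citric acid cycle, 0 passed in either genotype, with medians of -0.03 on the arrays labelled Fancc-/- and -0.07 in wild type. Unadjusted p-values under 0.05 belonged to 2 of the 25 on the arrays labelled Fancc-/- and 4 in wild type. Of all genes, 17.1% and 17.8% had such values in that order. The electrophile response list, targets of the kind of stress that itaconate can cause, had 1 of 14 genes called. This was Me1, the cytosolic malic enzyme, which rose by 0.79 (SE 0.19, limma adjusted p = 0.0389) on the arrays labelled Fancc-/- and by 0.86 (SE 0.19, limma adjusted p = 0.0242) in wild type. Its calls were lost in 13 of 22 alternatives on the arrays labelled Fancc-/- and in 6 of 22 in wild type. On the arrays labelled Fancc-/- these losses included the fits without any of its 3 treated replicates, without its untreated replicate 1 or 3, and without wild-type untreated replicate 2 or treated replicate 2 or 3. In wild type they included the fits that lacked treated replicate 1 or 2, or else its untreated replicate 2 or 3, with adjusted p up to 0.105 there and up to 0.144 on the arrays labelled Fancc-/-.

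Among 19 receptors for chemoattractants and metabolites, 1 rose and 2 fell on the arrays labelled Fancc-/-, and 2 rose and 2 fell in wild type. Ffar2, a receptor for short-chain fatty acids, read 12.15, 12.19 and 12.12 with TNF on the arrays labelled Fancc-/-, against 10.82, 10.90 and 11.04 without. It rose by 1.23 (SE 0.09, limma adjusted p = 3.0e-05) there and by 1.31 (SE 0.09, limma adjusted p = 1.7e-05) in wild type, and passed in all 22 alternatives. Ltb4r1, a receptor for leukotriene B4, fell by 1.23 on the arrays labelled Fancc-/- and fell by 1.48 in wild type. The first of these calls was lost in 5 of 22 alternatives, among them the fits without untreated replicate 3, treated replicate 1 or treated replicate 2 labelled Fancc-/- (adjusted p up to 0.0792).

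Gpr35 fell by 1.46 (limma adjusted p = 0.0492) on the arrays labelled Fancc-/- and fell by 1.58 (adjusted p = 0.0312) in wild type, and the calls were lost in 13 and 6 of 21 alternatives (adjusted p up to 0.173). The first call was lost without any single array of either genotype other than wild-type untreated replicates 1 and 3, and the second without any wild-type array other than untreated replicate 1. Sucnr1, the receptor for succinate, was 0.22 higher on the arrays labelled Fancc-/- (adjusted p = 0.771) and rose by 1.21 in wild type (adjusted p = 0.0328). It read 5.46, 4.14 and 4.36 on the treated wild-type arrays, against 3.39, 3.60 and 3.36 on the untreated ones, so replicate 1 stood above the rest. The untreated levels, and treated replicates 2 and 3, lay near those of C1qa and Cd3e and are not shown to be above background. The Sucnr1 call was lost in 10 of 21 alternatives, among them the fits without any untreated wild-type array, treated wild-type replicate 3 or untreated replicate 1 or 3 labelled Fancc-/-, with adjusted p up to 0.153.

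Of the 17 measured genes on the list of acute phase proteins, which leaves out Saa3 and Cp, 0 passed in either genotype. At an unadjusted p under 0.05 there was 1 of the 17 on the arrays labelled Fancc-/- and there were 4 in wild type. The shares of all genes were 17.1% and 17.8% in that order. The list does not hold every such gene. Cfb, found below through its likeness to Adgre4, was not on it. It rose by 3.61 (SE 0.46, limma adjusted p = 0.00133) on the arrays labelled Fancc-/- and by 2.33 (SE 0.46, limma adjusted p = 0.0151) in wild type. Of 17 genes of iron and copper handling, 1 fell on the arrays labelled Fancc-/- and 2 fell in wild type. Slc39a14, a zinc and iron importer, fell by 0.69 (limma adjusted p = 0.00576) on the arrays labelled Fancc-/- and fell by 0.44 (adjusted p = 0.0472) in wild type, where 15 of 22 alternatives ended the call, including the fits without any single wild-type array, any untreated array labelled Fancc-/- or its treated replicate 3 (adjusted p up to 0.219). On the arrays labelled Fancc-/- the call was lost with probe sets averaged (adjusted p = 0.0514). Steap4, a metalloreductase, was at -0.42 on the arrays labelled Fancc-/- (limma adjusted p = 0.380) and fell by 1.05 in wild type (limma adjusted p = 0.0212). Wild-type arrays read 4.27, 3.58 and 4.23 with TNF, against 5.10, 5.00 and 5.13 without. The treated levels lay near that of C1qa and are not shown to be above background. The wild-type call of Steap4 was lost in 5 of 21 alternatives, among them the fits without any untreated wild-type array or treated replicate 2, with adjusted p up to 0.0724.

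In the Ly6 family 2 of 14 genes rose in both genotypes. Ly6d, a lymphoid-associated member, read 10.23, 11.37 and 10.34 with TNF on the arrays labelled Fancc-/-, against 7.82, 7.52 and 7.18 without. On wild-type arrays the level was 8.99, 11.09 and 10.01 with TNF, against 6.21, 7.36 and 7.16 without. Here replicate 2 was the highest treated array in both genotypes, unlike for Ly6i. Ly6d rose by 3.14 (limma adjusted p = 0.00514) on the arrays labelled Fancc-/- and by 3.12 (adjusted p = 0.00484) in wild type, where the call was lost with Xist and Eif2s3y as covariates (adjusted p = 0.0584). Lynx1, a modulator of nicotinic receptors, rose by 1.38 (adjusted p = 0.00628) on the arrays labelled Fancc-/- and by 1.12 (adjusted p = 0.0177) in wild type, where 6 of 21 alternatives ended the call, among them the fits without replicate 2 or 3 of either treatment (adjusted p up to 0.127).

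A probe set that the annotation gives to both Ly6c2 and Ly6c1, near relatives of Ly6i, read 12.23, 11.07 and 12.75 with TNF on the arrays labelled Fancc-/-, against 11.21, 11.65 and 12.17 without. In wild type it read 11.76, 11.04 and 11.38 with TNF, against 11.23, 11.28 and 11.44 without. It was high on every array, and treated and untreated arrays overlapped in both genotypes. Its TNF difference was 0.34 (-0.49 to 1.17, limma adjusted p = 0.783 over all probe sets) on the arrays labelled Fancc-/- and 0.08 (-0.75 to 0.91, adjusted p = 0.954) in wild type.

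Of 17 adhesion G protein-coupled receptors other than Adgre4, Adgrg6 alone passed. It read 6.98, 6.91 and 6.97 with TNF on the arrays labelled Fancc-/-, against 4.61, 5.59 and 4.04 without. Adgrg6 rose by 2.21 (SE 0.33, limma adjusted p = 0.00375) there and by 1.81 (SE 0.33, adjusted p = 0.0102) in wild type, with a call in all 21 alternatives.

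The macrophage activation list held 24 measured genes, of which 2 rose and 1 fell on the arrays labelled Fancc-/-, and 3 rose and 2 fell in wild type. Cd274, which encodes the checkpoint ligand PD-L1, rose by 2.10 (SE 0.13, limma adjusted p = 8.3e-06) on the arrays labelled Fancc-/- and by 2.25 (SE 0.13, adjusted p = 4.8e-06) in wild type. Msr1, a scavenger receptor of macrophages, fell by 2.47 (adjusted p = 0.00592) on the arrays labelled Fancc-/- and fell by 2.02 (adjusted p = 0.0161) in wild type. It read 5.89, 5.68 and 6.65 on the treated arrays labelled Fancc-/-, against 8.14, 8.15 and 9.34 on the untreated ones. In wild type the Msr1 call was lost without replicate 2 or 3 of either treatment, with adjusted p up to 0.0690.

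Ptgs2, the inducible cyclooxygenase, was 0.94 higher on the arrays labelled Fancc-/-, just outside the threshold (limma adjusted p = 0.050), and rose by 1.79 in wild type (adjusted p = 0.00142). Hdc, histidine decarboxylase, was the other gene that fell in wild type, named here outside the rule. The gene for TNF itself rose by 0.92 (adjusted p = 0.00620) on the arrays labelled Fancc-/- and by 0.70 (adjusted p = 0.0225) in wild type, and the wild-type call was lost in 7 of 22 alternatives, among them the fits without any treated array or untreated replicate 2 or 3 (adjusted p up to 0.121). No gene of the 8 lists passed for any genotype difference or for the interaction, beside the shares of all genes given above. For the genotype difference with TNF, 10 of their 147 measured genes had an unadjusted p under 0.05, beside 5.6% of all genes.

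**Figure D5:**
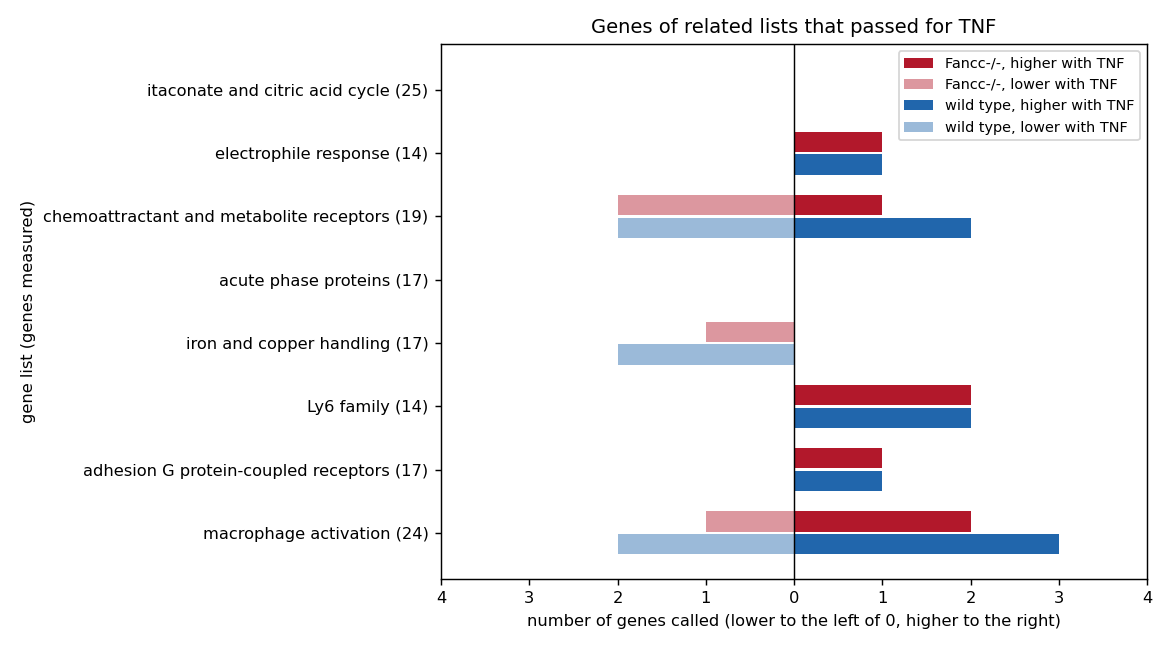
Number of genes of each related list that passed for TNF (horizontal axis, lower to the left of 0 and higher to the right), with arrays labelled Fancc-/- above wild type. The lists of itaconate and the citric acid cycle and of acute phase proteins have no bars.

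The genes beside the members on the chromosome were read in the same fit. Of 42 neighbours that are not members, the 3 measured genes on each side in the GRCm38.p6 order, 0 passed in either genotype, beside 4.31% of all genes on the arrays labelled Fancc-/- and 5.02% in wild type. Unadjusted p-values under 0.05 belonged to 9 of the 42 on the arrays labelled Fancc-/- and 7 in wild type, beside 17.1% and 17.8% of all genes in that order. These neighbours were chosen after values were seen. Beside Saa3, the serum amyloid genes Saa1, Saa2 and Saa4 had TNF differences of -0.01, -0.14 and -0.18 on the arrays labelled Fancc-/- and -0.03, -0.16 and -0.27 in wild type. Beside Fpr2, the formyl peptide receptor relatives Fpr-rs4 and Fpr-rs3 were at -0.06 and -0.33 on the arrays labelled Fancc-/-, and at -0.12 and -0.13 in wild type. Beside Ly6i, Ly6e, Ly6f and Ly6m were at 0.22, 0.26 and -0.01 on the arrays labelled Fancc-/-, and at 0.21, 0.32 and -0.09 in wild type.

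The genes most like each member over the 12 arrays were taken as those with the smallest root mean square difference. Values were centred on each gene's mean, and genes with predicted or clone-type names were skipped. The members' nearest fellow members were Fpr2 for Acod1 (0.59 log2 units), Cp for Fpr2 (0.42), Adgre4 for Cp (0.35), Cp for Ly6i (0.36), Cp for Adgre4 (0.35), Ly6i for Gpr84 (0.52) and Gpr84 for Saa3 (0.99). Outside the list, Sema6d was among the nearest 2 genes for 4 members, at 0.44 from Ly6i, 0.59 from Cp, 0.75 from Fpr2 and 0.96 from Acod1. Aoc1 stood at 0.93 from Acod1, Spic at 0.58 from Adgre4, and Zbtb46 at 0.58 from Ly6i. Spic was at 0.68 from Cp and 0.81 from Fpr2, and Cfb at 0.62 from Adgre4. Nearest to Gpr84 were Tnfaip3 (0.30), an NF-kB feedback inhibitor, and Gstt1 (0.31), and nearest to Saa3 were Cybb (0.28), a subunit of the phagocyte oxidase, and Rnd1 (0.39). These distances rest on the same arrays as the choice of the members and describe the size of the values with TNF, with no test.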

How the data were processed

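The authors deposited 1 log2 value per probe set and array for 12 Affymetrix mouse arrays, computed with RMA, a multi-array normalisation and summary, per the submitters' processing notes, which name no version. Per the labels' protocols, total RNA was amplified before hybridisation. RMA gives all arrays the same distribution, which hides any shift of a whole group and compresses differences between low levels. The number of arrays limits the precision.

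Probe sets were named through the platform annotation: 34945 had 1 gene symbol, 932 several and 9160 none listed. A gene was represented by its probe set with 1 symbol and the highest mean. limma 3.58.1 in R 4.3.3 fitted 1 mean per group over all 12 arrays for 18193 genes, and the test was checked on simulated data. Genes were named by a rule: every member, up to 4 called genes per related list, and the 2 nearest genes per member without predicted or clone-type names. The single probe sets and the members' neighbours were picked with their values known. The members, the 8 related lists and the 9 marker lists were chosen with earlier results of these data known.

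Each result was recomputed with array weights (statmod 1.5.0), all probe sets, a gene's probe sets averaged, cyclic loess and array medians subtracted. Further settings were a low-value filter, moderation with trend and robust settings, a replicate block, only the groups compared, and leaving out each array. Xist and Eif2s3y served as covariates because these sex-linked transcripts differed between replicates and Xist between treatments. The low-value filter dropped Gpr35, Sucnr1, Steap4, Lynx1 and Adgrg6, so each of these had 21 alternatives for TNF. Replicate numbers were not taken to pair the samples in the main fit, and the replicate block was run as an alternative. The deviations of 7 of 18 same-numbered pairs of arrays correlated over 0.1 (range -0.159 to 0.278). Of the 36 other pairs, 6 did (range -0.331 to 0.181). Treated arrays of the same number correlated across genotypes at 0.217, 0.230 and 0.048 for replicates 1, 2 and 3. Whether same-numbered arrays shared a batch was not tested.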

Additional observations from a re-analysis of the deposited data

How the results depend on the processing

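The number of members that passed was 0 of 7 for the interaction and for each genotype difference under every alternative that was run. With TNF, the members' differences ran from 1.97 to 6.40 over 308 alternative values, the highest being Acod1 without treated replicate 2 labelled Fancc-/-. Many of these values equal the main one by construction, such as those that leave out an array of the other genotype. With probe sets averaged, Cp differed by 2.86 on the arrays labelled Fancc-/- and 2.19 in wild type, and Adgre4 by 3.33 and 2.25 in the same order, since dimmer probe sets enter.

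Of the related genes, 22 passed for TNF on the arrays labelled Fancc-/- with array weights, against 11, and 7 passed in wild type with Xist and Eif2s3y as covariates, against 15. Leaving out 1 array gave 8 to 17 on the arrays labelled Fancc-/- and 6 to 19 in wild type. With the replicate block the related counts were 14 and 16, and no call among the members changed. Over all genes, leaving out 1 array gave 444 to 951 calls for TNF on the arrays labelled Fancc-/-, against 784, and 474 to 957 in wild type, against 913. The covariates gave 452 and 410, and array weights 1168 and 1255, in that order of genotype; the cause was not tested.

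Values near 0 changed sign without passing. The Saa3 interaction was 0.0105 after centring, 0.34 with array weights and 0.0187 with the covariates, and -0.26 to 0.35 when 1 array was left out. The Cp difference without TNF was -0.0206 with probe sets averaged. When 1 array was left out, the interaction ran from -0.13 to 1.06 for Acod1 and from -0.0081 to 0.98 for Fpr2, where the lowest value in each came without treated replicate 3 labelled Fancc-/-. The genotype difference with TNF ran from -0.19 to 0.0749 for Gpr84. Without TNF it ran from -0.039 to 0.72 for Fpr2, -0.13 to 0.22 for Ly6i and -0.29 to 0.0328 for Adgre4. The causes were not tested.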
